A study of Mus musculus with 14 samples.

Results

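The glucocorticoid receptor gene Nr3c1, 7 genes that the receptor is known to induce (Fkbp5, Tsc22d3, Sgk1, Per1, Klf9, Dusp1, and Zbtb16), and Hsd11b1, which makes the receptor's hormone available inside cells, were followed through bulk RNA-seq of CT26 tumors. The 9 genes were chosen by name, Nr3c1 because the study named it as a candidate regulator in its resistant line B04. The others were chosen as known members of the same pathway. The choice was made with earlier results of these data known. Shares of the members set beside shares of all genes below are therefore a description and not a test of the set. They are 9 of the 53801 genes with values, and all 9 were among the 16287 genes with enough counts to be tested. CT26 is a colorectal carcinoma line of Balb/c mice, and the cells carried ClonTracer retroviral barcodes that mark clones. The cells were injected under the skin of both flanks of wild-type Balb/c mice aged 6 to 8 weeks, with 250000 cells per site. From day 7 the mice received 5 intraperitoneal doses of 200 μg of antibody, 1 every 3 days, and the tumors were taken 3 days after the last dose. The control IgG group, given clone 2A3, had 5 tumors from 4 mice. Mice given anti-PD-1 (clone 1A12) were divided by tumor size at the end of treatment, compared with the controls, into responders (5 tumors from 4 mice) and non-responders (4 tumors from 3 mice). The groups of treated tumors were therefore defined by an outcome and not by an assigned treatment. Tumors are named by mouse and flank, so that 33R is the right tumor of mouse 33. Whole pieces of tumor were sequenced, and a gene's level adds up cancer cells and all host cells in the piece, so that fewer cells of a type and less RNA per cell cannot be told apart.

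The glucocorticoid receptor is a transcription factor that waits in the cytoplasm in a complex with heat shock proteins and other chaperones. When it binds cortisol or, in mice, corticosterone, it moves to the nucleus, where it switches on genes through palindromic response elements and holds back inflammatory genes driven by NF-kappaB and AP-1. Glucocorticoids are best known in immunity for suppressing T cells and macrophages, and several of the genes that the receptor induces, such as Tsc22d3 and Dusp1, carry out part of that suppression.

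The DNA around the start sites of members was searched for the receptor's own motif and for other elements. RefSeq promoter windows (build GRCm38.p6, 250 bases before to 50 bases after each annotated start) were at hand for 7 of the 9 members, 15 windows in all, and were searched on both strands. The receptor palindrome, spelled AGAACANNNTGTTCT, was in 1 window, of Sgk1, 189 bases before the start, against 0.00913% of all 32851 mouse windows. The E-box CACGTG is the element that clock proteins of the CLOCK and BMAL1 kind bind. It was in 1 window each of Sgk1, Fkbp5, Per1, and Dusp1, and in 7.15% of all windows. Some members had more than 1 window. The cAMP response element TGACGTCA was in a window of Dusp1, and in 1.79% of all windows. Below, the 150 bases from 250 to 101 bases before the start are written 5′ to 3′ on the gene's strand, with these motifs in capitals. Each stretch lies inside the span annotated for its gene, because longer transcripts start further upstream, and outside every annotated exon.
Sgk1, chr10:21993640-21993789, plus strand: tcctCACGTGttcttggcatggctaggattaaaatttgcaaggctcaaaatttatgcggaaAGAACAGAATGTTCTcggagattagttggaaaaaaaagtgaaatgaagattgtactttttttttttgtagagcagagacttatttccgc
Fkbp5, chr17:28486250-28486399, minus strand: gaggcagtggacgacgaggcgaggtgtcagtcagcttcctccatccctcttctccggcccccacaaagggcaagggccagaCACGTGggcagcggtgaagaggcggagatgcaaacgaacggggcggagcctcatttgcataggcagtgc
Per1, chr11:69098699-69098848, plus strand: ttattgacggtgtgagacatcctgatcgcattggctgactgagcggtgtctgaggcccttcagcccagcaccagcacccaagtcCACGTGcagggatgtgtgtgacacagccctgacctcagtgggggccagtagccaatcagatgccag
Dusp1, chr17:26508573-26508722, minus strand: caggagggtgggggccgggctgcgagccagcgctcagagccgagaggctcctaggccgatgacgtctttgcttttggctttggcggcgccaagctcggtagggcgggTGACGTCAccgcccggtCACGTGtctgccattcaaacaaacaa
The Sgk1 stretch is the one of the 4 rich in A and T, with 36% G and C against 58.7% to 64.7% in the others. A match of letters is a description of the sequence and not a site that the receptor was shown to bind here. Elements outside these windows were not searched.

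Depth and cell makeup bear on all 9 genes. The expected counts, RSEM's estimate of how many fragments a gene gave, summed over a tumor to between 33237744 and 48481461. The non-responder 33R stood apart. It had the lowest TMM factor, edgeR's scaling of a library's total (0.9175, against 0.9664 to 1.066) and the longest mean fragment length of the 14 (286.8 bases), it was lowest of the 14 in Nr3c1, Sgk1, Per1, and Klf9, and it was among the lowest 3 for 7 of the 9 members. The non-responder 29L went the other way and was highest of the 14 in Fkbp5, Tsc22d3, and Klf9, so that values without each of these tumors are given where they matter. In responders 7 of 8 T cell markers were higher than in non-responders and 8 of 8 higher than in controls, and their summed level was 53.99 to 98.59 CPM (a gene's count relative to the TMM-scaled total of its library) in responders, 30.96 to 38.14 in non-responders, and 24.78 to 51.83 in controls. Markers of B and plasma cells (2 of 6 tested higher than in non-responders, 4 of 6 higher than in controls) summed to 37.46 to 51.46 CPM in responders, 19.66 to 27.35 in non-responders, and 20.25 to 27.01 in controls. Of 8 macrophage markers 1, Adgre1, was higher in both comparisons, and the summed levels were 1854 to 2269, 1499 to 1831, and 1644 to 1909 CPM in the same order. The share of these cells in the results below was not tested. Among markers of colon epithelium, Vil1 was at 0 in 2 tumors and never above 0.1744 CPM, Cdx2 stayed at or under 0.6798 CPM, and Epcam at or under 5.334 CPM, while Krt20 reached 488.7 CPM.

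The receptor's target genes were far from equally expressed. On the length-corrected transcript scale (TPM), which allows genes to be compared with each other, the median over the 14 tumors was 196.5 for Tsc22d3, 160.5 for Fkbp5, 108.4 for Sgk1, 50.04 for Dusp1, 40.72 for Per1, 36.11 for Nr3c1, 20.44 for Klf9, 2.45 for Hsd11b1, and 0.445 for Zbtb16. Tsc22d3 encodes GILZ, a leucine zipper protein that mediates anti-inflammatory effects of glucocorticoids, and its TPM exceeded that of Fkbp5 in 10 of 14 tumors (adjusted p = 0.0474, exact paired permutation test on log2 TPM, over 8 pairs of neighbours). Fkbp5 in turn exceeded Sgk1 in 10 of 14 (adjusted p = 0.0234 by the same exact test), and Sgk1 exceeded Dusp1 in 14 of 14 (adjusted p = 0.000244, from an exact p of 0.000122, the smallest that 14 tumors allow). Dusp1, Per1, and Nr3c1 could not be ordered, since Dusp1 was above Per1 in 10 of 14 tumors and Per1 above Nr3c1 in 10 of 14 (adjusted p = 0.0844 and 0.0929, exact). Nr3c1, Klf9, Hsd11b1, and Zbtb16 followed each other in that order in all 14 tumors (adjusted p = 0.000244 for each step, exact). The first steps were not alike in the groups. Tsc22d3 was above Fkbp5 in 5 of 5 controls, 2 of 4 non-responders, and 3 of 5 responders, and Fkbp5 was above Sgk1 in 1 of 5, 4 of 4, and 5 of 5, so that the pooled order of these genes does not hold within each group. The tumors of a mouse are not independent, so these p-values are somewhat too small.

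**Figure D1:**
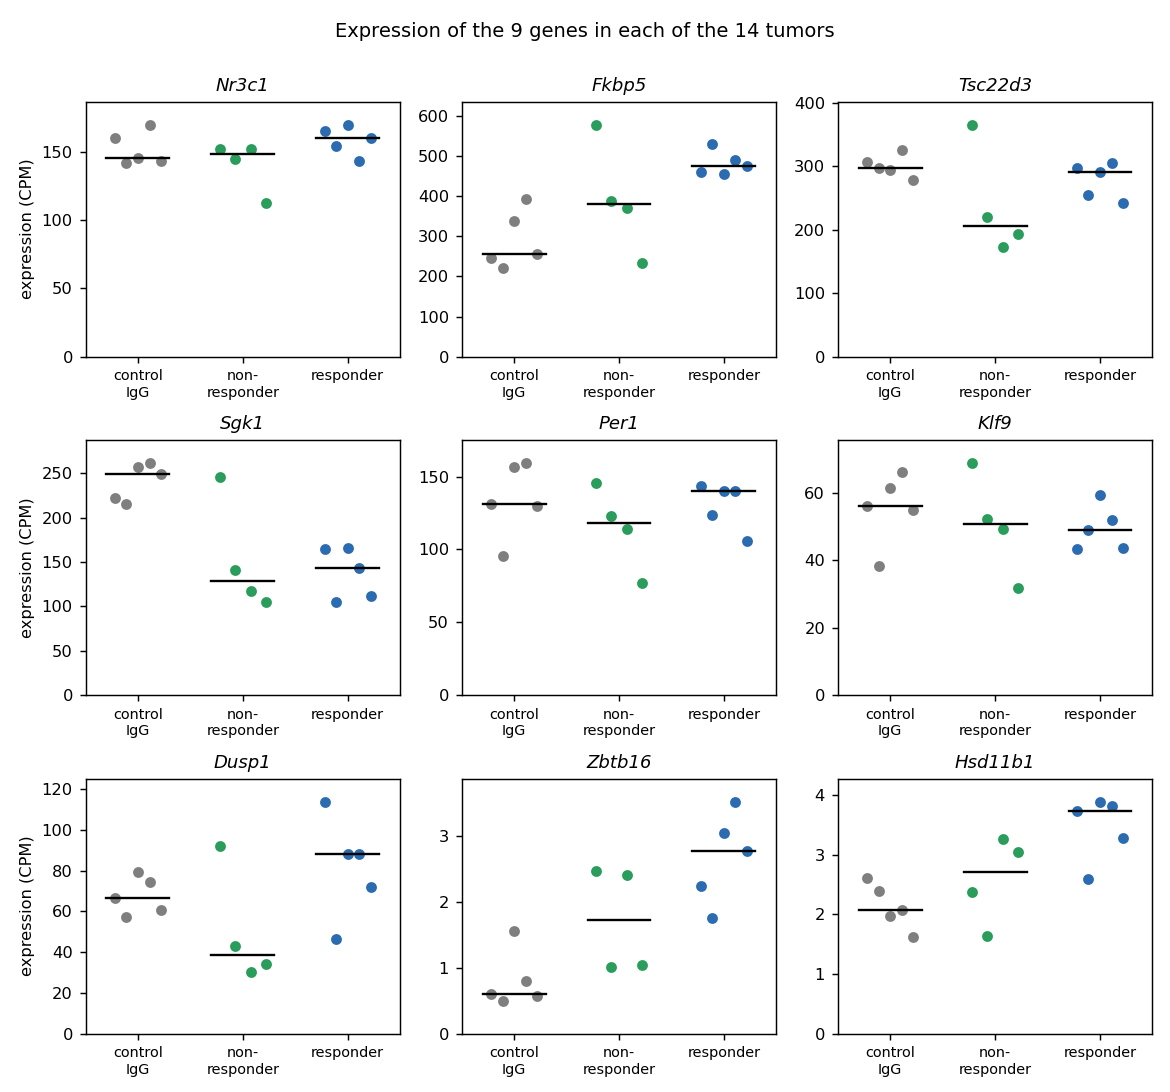
Level of each of the 9 genes in each tumor, in CPM on linear axes that start at 0, with 1 panel per gene, 1 point per tumor, a bar at the group median, and the groups in the order control IgG, non-responder, and responder. Zbtb16 and Fkbp5 lie higher and Sgk1 lower in all 5 responders than in all 5 controls, while the non-responders reach into both ranges.

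Nr3c1 itself (ENSMUSG00000024431, mm10 chromosome 18, 39410545 to 39519421, minus strand) was nearly level across the groups in CPM. In CPM scaled by TMM, the controls 14L, 14R, 16R, 17R, and 20R had 159.9, 142, 145, 169.5, and 143. The responders 24L, 26R, 30L, 30R, and 35L had 165, 154, 169.6, 143, and 159.8, and the non-responders 29L, 32R, 33L, and 33R had 152, 144, 152, and 112. All tumors but 33R lay in a narrow band of CPM that the 3 groups shared. On TPM the responders had 36.48 to 42.19, the non-responders 19.5 to 35.75, and the controls 28.08 to 39.87. There the responders did not overlap the non-responders, while the median over all genes also moved up by 0.169 on the log2 scale. The difference of responders from non-responders was 0.17 ± 0.10 on the log2 scale (SE, adjusted p = 0.255, edgeR's quasi-likelihood test with Benjamini-Hochberg adjustment over 16287 genes, as for every log2 difference below), from controls 0.06 ± 0.09 (adjusted p = 0.718), and of non-responders from controls -0.12 (adjusted p between 0.931 and 0.934, as for all 9 members in that comparison). Nr3c1 was also the steadiest member, with a residual SD within groups of 0.142 on the log2 scale, which was lower in 21.3% of all tested genes, against a median of 0.234 over all genes. The other 8 members had residual SDs between 0.269 (Tsc22d3) and 0.571 (Zbtb16).

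Of the 9 members, 4 differed between responders and control IgG tumors, in both directions. Zbtb16, Fkbp5, and Hsd11b1 were higher in responders, Sgk1 was lower, and the other 5 members did not pass the test. Over all genes tested 13.2% passed in this comparison, 7.88% as higher and 5.3% as lower. The tumors of the groups did not overlap for 3 of the 9 members (Zbtb16, Fkbp5, and Sgk1), against 15.1% of all genes. The members' median log2 difference was 0.0595, beside -0.0105 over all genes. Per1, Klf9, Tsc22d3, and Dusp1 are targets of the receptor as much as the genes that passed, and their log2 differences were -0.04 ± 0.16, -0.16 ± 0.18, -0.11 ± 0.16, and 0.27 ± 0.28 (SE).

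Zbtb16 (PLZF, a zinc finger repressor that also guides innate-like T cells, ENSMUSG00000066687, mm10 chromosome 9, 48654297 to 48836222, minus strand) had the largest difference of the members. The controls had 0.596, 0.491, 1.55, 0.796, and 0.571 CPM, in the tumor order above. The responders had 2.24, 1.75, 3.04, 3.52, and 2.77 CPM, and the non-responders 2.47, 1.02, 2.41, and 1.045 CPM. Every responder was above every control, and the non-responders 29L and 33L lay among the responders while 32R and 33R lay within the range of the controls. The log2 difference of responders from controls was 1.74 ± 0.36 (SE, adjusted p = 0.00647, edgeR). That of non-responders from controls was 1.12 ± 0.37 (unadjusted p = 0.00954, but not past the adjusted threshold in edgeR), and that of responders from non-responders was 0.62 ± 0.37 (adjusted p = 0.291, edgeR). Zbtb16 was thinly covered, at 21 to 177 expected counts per tumor. T cell markers rose in the same responder tumors, with the values given above. In the non-responders 29L, 32R, 33L, and 33R these markers summed to 34.95, 37.13, 30.96, and 38.14 CPM, all within the range of the controls. The part of T cells in the level of Zbtb16 was not tested.

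Fkbp5 (an immunophilin of the receptor's chaperone complex that lowers its affinity for hormone, and a standard readout of receptor activity, ENSMUSG00000024222, mm10 chromosome 17, 28399094 to 28517527, minus strand) was abundant in every tumor. The controls had 247, 222, 339, 393.5, and 256 CPM. The responders had 460.1, 530.1, 454, 490.5, and 474 CPM, and the non-responders 578, 389, 371, and 234.5 CPM. The responders were close together and all above the highest control, whereas the non-responders ran from the highest value of the 14 (29L) to below 4 of the 5 controls (33R). Responders averaged 481.9 ± 30.36 CPM (SD, n = 5), controls 291.5 ± 72.03 (n = 5), and non-responders 393.1 ± 141.4 (n = 4). The log2 difference of responders from controls was 0.73 ± 0.20 (SE, adjusted p = 0.0281, edgeR), but it passed in only 8 of the 14 fits that each left out 1 tumor. It failed without 14L, 14R, 20R, 24L, 26R, or 30R, with an adjusted p of at most 0.0773 in edgeR. The difference of responders from non-responders was 0.29 ± 0.21 (adjusted p = 0.388, edgeR), and became 0.13 without 33R and 0.54 without 29L (adjusted p = 0.741 and 0.0804).

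Hsd11b1 encodes the enzyme that turns inert keto steroid back into active glucocorticoid (ENSMUSG00000016194, mm10 chromosome 1, 193221634 to 193264075, minus strand). The controls had 2.61, 2.39, 1.97, 2.07, and 1.62 CPM. The responders had 3.72, 2.59, 3.88, 3.81, and 3.27 CPM, and the non-responders 2.37, 1.64, 3.26, and 3.04 CPM. Of the responders 4 were above every control, and 26R fell just under the highest control, 14L. The log2 difference of responders from controls was 0.70 ± 0.20 (SE, adjusted p = 0.0322, edgeR), and that of responders from non-responders 0.43 ± 0.21 (adjusted p = 0.204, edgeR). The first passed in 8 of the 14 fits without 1 tumor and failed without 16R, 17R, 20R, 24L, 30L, or 30R (adjusted p up to 0.0902, edgeR), and it was also lost when no filter on low counts was applied (adjusted p = 0.0582, edgeR). Hsd11b1 had 71 to 192 expected counts per tumor, and its annotated span overlaps Lamb3 on the opposite strand. The libraries' strandedness was not given in the sources used here.

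Sgk1 (a serine/threonine kinase that controls ion channels and cell survival, ENSMUSG00000019970, mm10 chromosome 10, 21882184 to 21999903, plus strand) is the member whose window holds the full receptor palindrome printed above, and it was lower in responders than in controls. The controls had 222, 215, 257, 261, and 249 CPM. The responders had 164, 105, 166, 144, and 112 CPM, and the non-responders 246, 140.5, 117, and 105 CPM. Every responder was below every control, and so was every non-responder but 29L, which lay within the controls. The log2 difference of responders from controls was -0.80 ± 0.20 (SE, adjusted p = 0.0192, edgeR), and it passed in all 14 fits that left out 1 tumor. On TPM it was -0.63 and missed the threshold (adjusted p = 0.091, limma on log2(TPM + 1)). Non-responders differed from controls by -0.66 ± 0.22 (unadjusted p = 0.00832, not past the adjusted threshold in edgeR), and by -0.99 without 29L (adjusted p = 0.134, edgeR).

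None of the 9 members passed between responders and non-responders, where 9.9% of all genes did, 5.08% as higher and 4.82% as lower in responders (edgeR). Dusp1 alone had an unadjusted p under 0.05 there, DESeq2 called 0 members, limma-voom with mouse as a random effect called 1, and limma on TPM called 2. On log2 CPM no member separated the tumors of these groups without overlap, against 12.8% of all genes. On TPM Nr3c1 did, and the share over all genes was not computed on that scale. Of the log2 differences 7 of 9 were above 0, with a median of 0.226, beside 0.0062 over all genes, and on TPM the median over all genes itself moved up by 0.169. Sgk1 and Klf9 were the members below 0, at -0.14 ± 0.21 and -0.03 ± 0.19 (SE), and both turned above 0 on TPM, under limma-voom, and without 29L.

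Dusp1 and Tsc22d3 did not pass between responders and non-responders with all tumors in edgeR, and both passed without 29L. Without 29L the non-responders were 32R, 33L, and 33R, and the fit took 33L and 33R as independent although they came from the same mouse. Dusp1 also passed with all tumors under limma-voom with mouse as a random effect (adjusted p = 0.0387) and under limma on TPM (adjusted p = 0.045). The limma-voom fit estimated a correlation of -0.282 between tumors of a mouse, and a value below 0 does not make its test stricter. With the tumors of a mouse summed, edgeR called 0 members in this comparison. Dusp1 encodes the phosphatase MKP-1, which switches off p38 and JNK signalling (ENSMUSG00000024190, mm10 chromosome 17, 26505590 to 26562128, minus strand). Its controls had 66.4, 57.2, 79.25, 74.6, and 60.8 CPM. Its responders had 113.7, 46.4, 88.05, 88.2, and 71.8 CPM, and its non-responders 92.2, 42.9, 30.3, and 34.3 CPM. The non-responders 32R, 33L, and 33R were the lowest 3 tumors of the 14, and 29L was second only to the responder 24L. The log2 difference of responders from non-responders was 0.71 ± 0.30 (SE, adjusted p = 0.139, edgeR), 1.19 without 29L (adjusted p = 0.0102), and 0.58 without 33R (adjusted p = 0.308). Dusp1's span overlaps Ergic1 on the opposite strand, a gene with a mean of 6809.43 expected counts per tumor.

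Tsc22d3 (ENSMUSG00000031431, mm10 chromosome X, 140539528 to 140600659, minus strand) had 307.5, 297, 295, 325, and 278 CPM in the controls. The responders had 297, 255, 291, 306, and 242 CPM, and the non-responders 365.5, 219.8, 173, and 194 CPM. The controls and responders overlapped, the non-responders 32R, 33L, and 33R were below all tumors of both, and 29L was above them all. Responders differed from non-responders by 0.23 ± 0.17 on the log2 scale (SE, adjusted p = 0.413, edgeR) with all tumors and by 0.51 without 29L (adjusted p = 0.0121, edgeR). The fit without 29L again took 33L and 33R, from the same mouse, as independent.

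Per1 (a clock gene that the receptor also induces, ENSMUSG00000020893, mm10 chromosome 11, 69095217 to 69109960, plus strand) and Klf9 (a Krüppel-like repressor, ENSMUSG00000033863, mm10 chromosome 19, 23141226 to 23168134, plus strand) showed no difference that passed in any comparison. Per1 was between 95.48 and 159.1 CPM in the controls, between 105.7 and 143.4 in the responders, and between 77.3 (33R) and 145.6 (29L) in the non-responders. Klf9 ranged from 38.26 to 66.09 CPM in the controls, from 43.2 to 59.26 in the responders, and from 31.68 (33R) to 68.71 (29L) in the non-responders. For both genes the non-responders spanned the other groups' range from below to near its top or above it.

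**Figure D2:**
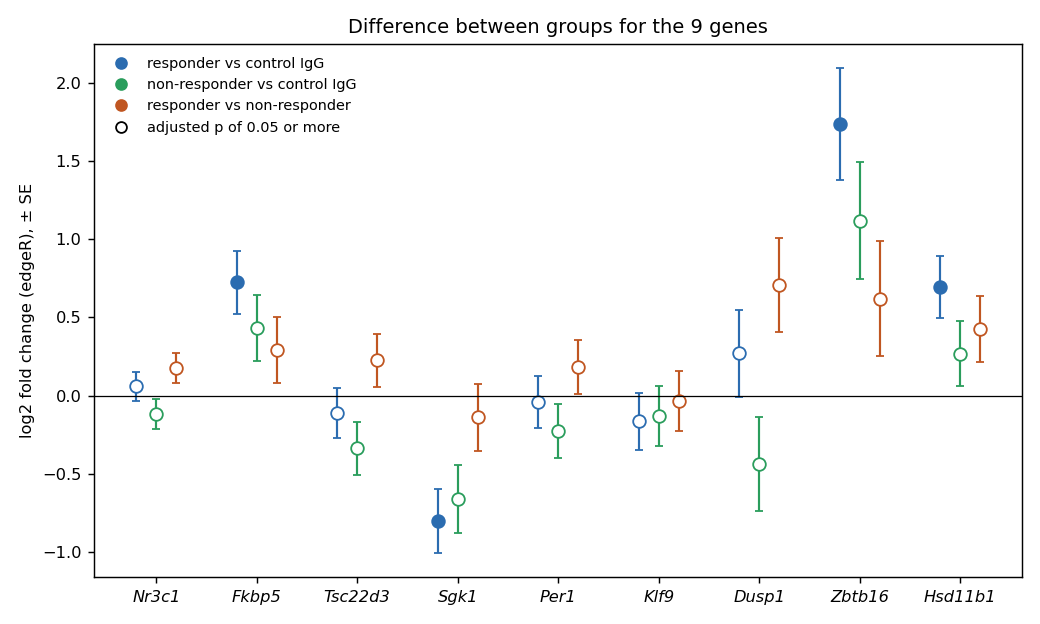
Log2 difference of each gene with its standard error as a bar, for responders versus non-responders, responders versus control IgG, and non-responders versus control IgG, filled where the adjusted p of edgeR is under 0.05. The 4 filled points all belong to responders versus control IgG, from 1.74 for Zbtb16 to -0.80 for Sgk1.

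Between non-responders and control IgG tumors, 0 of the 9 members passed, and so did 0 of 16287 genes, or 0%, as higher, lower, or either (edgeR). In that comparison 758 genes had an unadjusted p under 0.05, DESeq2 called 16 genes, and limma-voom with mouse as a random effect called 0. Of the members, Sgk1 and Zbtb16 had an unadjusted p under 0.05, and DESeq2 and limma-voom called 0. No member separated the 2 groups without overlap, against 1.25% of all genes. The members' median log2 difference was -0.131, beside 0.00554 over all genes. The 3 comparisons share tumors, so their values are given side by side and are not independent of each other.

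The ratio of Fkbp5 to Sgk1, both direct targets of the receptor, was higher in each treated tumor than in each control. This pair was chosen after its values were seen, and its ratio is given as a description with no test. The log2 ratio of Fkbp5 to Sgk1 in CPM was 0.15, 0.04, 0.40, 0.59, and 0.04 in the controls. It was 1.48, 2.33, 1.45, 1.77, and 2.09 in the responders, and 1.23, 1.47, 1.66, and 1.16 in the non-responders. Every anti-PD-1 tumor was above every control, 29L and 33R included, although those tumors were at opposite ends of the non-responders for each gene alone. Responders and non-responders overlapped. On TPM the ratio was -0.50 to 0.07 in controls, 0.54 to 1.07 in non-responders, and 0.81 to 1.70 in responders, so that Fkbp5 was the more abundant transcript in 1 of 5 controls and in 9 of 9 treated tumors. A ratio within a tumor does not depend on the scaling of the libraries, and it shows that the genes changed unequally, not which of them changed. Among the 36 pairs of members, the ratio did not overlap between non-responders and controls for 9 pairs, 25.0% beside 1.48% of all pairs of tested genes. Between responders and controls it was 17 pairs (47.2%, beside 14%), and between responders and non-responders 1 pair, Sgk1 and Dusp1 (2.78%, beside 12.1%). The pairs share genes, and 5 of the 9 include Fkbp5 and 4 include Sgk1. The 9 became 6 on TPM, 10 without 33R, and 16 without 29L. The share over all pairs of genes was not computed in these settings, and with a tumor left out any pair overlaps less easily.

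**Figure D3:**
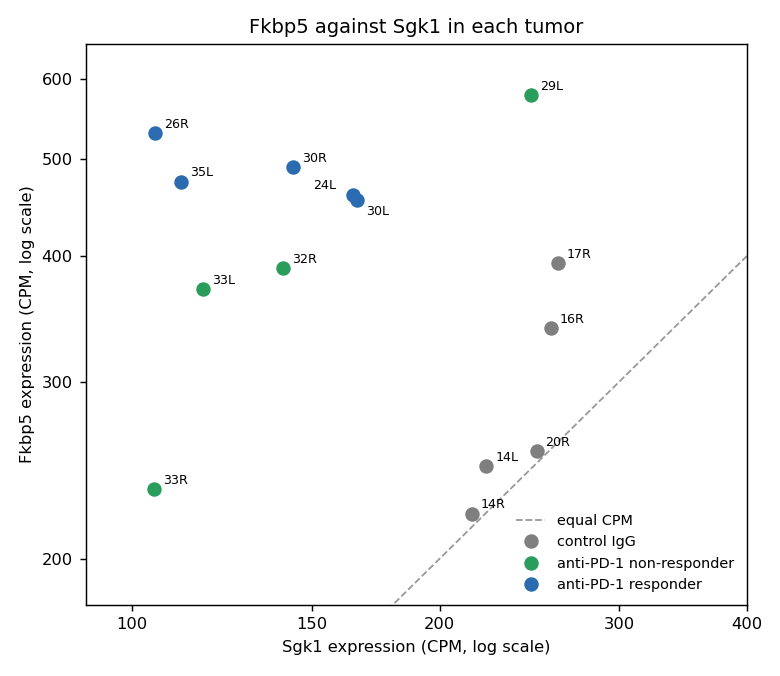
Fkbp5 against Sgk1 in CPM on log axes, with 1 labelled point per tumor, and a dashed line where both have the same CPM. All 9 anti-PD-1 tumors lie further above the line than the 5 controls, which have log2 ratios of 0.04 to 0.59.

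The flank tumors of a mouse give a sense of how far the members vary inside an animal. In mouse 30, a responder, the left and right tumors differed by at most 0.25 on the log2 CPM scale for any member. In mouse 33, a non-responder, the left tumor exceeded the right by 1.17 for Zbtb16, 0.66 for Fkbp5, 0.64 for Klf9, 0.56 for Per1, and 0.44 for Nr3c1. The median absolute difference over all genes was 0.42 in that mouse, 0.18 in mouse 30, and 0.26 in the control mouse 14, where Klf9 and Per1 differed by 0.55 and 0.46.

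Levels of some members were correlated from tumor to tumor. Of 36 pairs, 29 (80.6%) had a positive Pearson correlation of log2 CPM over the 14 tumors, beside 49.8% of all pairs of tested genes. An adjustment over the 36 left 4 pairs by Pearson's r and 9 by Spearman's rho. An r of at least 0.749, the lowest of the 4, was found in 11.1% of the member pairs and in 3.28% of all pairs. These shares are a description, since the pairs share genes and tumors. The 4 were Per1 and Klf9 (r = 0.879, rho = 0.767, adjusted permutation p = 0.00324 and 0.0205), Tsc22d3 and Dusp1 (r = 0.855, rho = 0.754, adjusted permutation p = 0.00324 and 0.0205), Fkbp5 and Zbtb16 (r = 0.817, rho = 0.745, adjusted permutation p = 0.00924 and 0.0205), and Tsc22d3 and Sgk1 (r = 0.749, rho = 0.705, adjusted permutation p = 0.0121 and 0.0246). Without the 2 tumors farthest from the median of the first gene, r was 0.68, 0.66, 0.79, and 0.68 in the same order. With the mean of each group removed, r was 0.91 for Per1 and Klf9, 0.87 for Tsc22d3 and Dusp1, 0.58 for Fkbp5 and Zbtb16, and 0.89 for Tsc22d3 and Sgk1. When values were permuted within groups, Fkbp5 with Zbtb16 no longer passed (adjusted permutation p = 0.243), the other 3 did, and 7 pairs passed in all. Of those, Sgk1 with Dusp1 was the strongest (r = 0.93, adjusted permutation p = 0.0128). Without 29L and 33R, a choice made after the data were seen, 2 pairs passed, Sgk1 with Dusp1 (r = 0.87) and Sgk1 with Per1 (r = 0.68, adjusted permutation p = 0.0466 for each). The other 5 of the 7 then had r between 0.67 (Fkbp5 and Klf9) and 0.83 (Per1 and Klf9) over 12 tumors, and 31 of the 36 pairs were positive, against 30 with all tumors. The tumors of 11 mice are not 14 independent samples, and with the tumors of a mouse averaged 5 pairs passed.

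Nr3c1's own level followed its targets loosely in CPM. On log2(TPM + 1) its r ranged from 0.47 (Hsd11b1) to 0.90 (Per1). In CPM with group means removed it ranged from -0.05 (Hsd11b1) to 0.69 (Klf9, adjusted permutation p = 0.152). Over all tumors in CPM its highest correlation was with Per1 (r = 0.695, rho = 0.468, adjusted permutation p = 0.0511 and 0.243), which fell to 0.29 without the 2 tumors farthest from the median and was 0.33 without 33R alone. Fkbp5 and Sgk1 had r = -0.232 over all tumors (rho = -0.156, adjusted permutation p = 0.517 and 0.672) and 0.64 with group means removed (adjusted permutation p = 0.167).

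**Figure D4:**
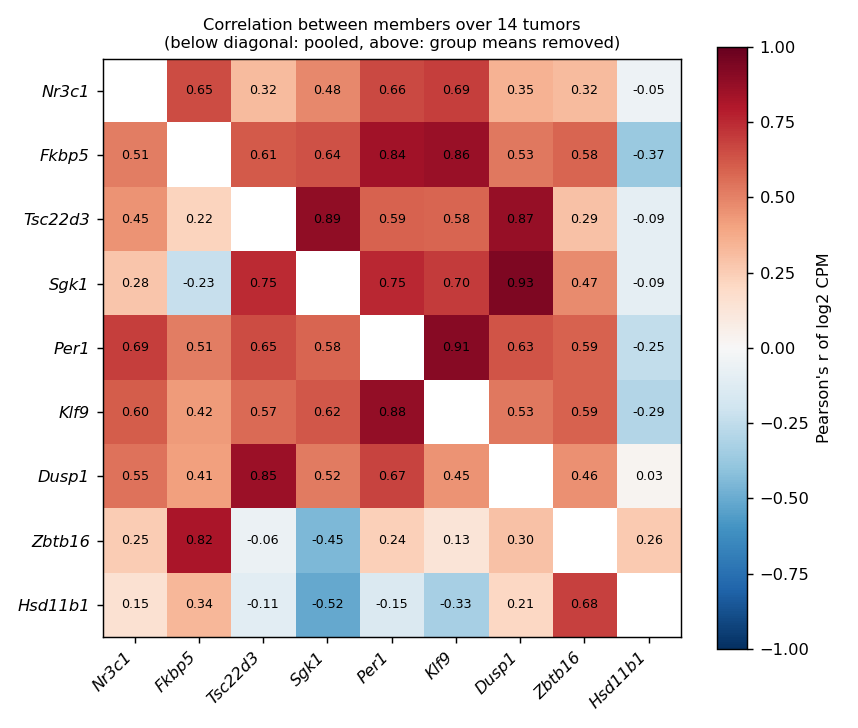
Pearson's r of log2 CPM for each pair of the 9 genes over the 14 tumors, below the diagonal as measured and above it with the mean of each group removed, on a scale from -1 (blue) to 1 (red). With group means removed Hsd11b1 has values between -0.37 and 0.26, and Fkbp5 with Sgk1 goes from -0.23 to 0.64 when the group means are removed.

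The genes most like each member were found over the same 14 tumors with group means removed, as a description, and share the libraries and their scaling. The 3 highest for Nr3c1 were Dock11 (r = 0.97), Atf2 (0.95), and Rbm27 (0.94), and for Fkbp5 Adamtsl4 (0.97), Map3k6 (0.95), and Fgd6 (0.95). Those for Per1 were Cnksr3 (0.99), Klf13 (0.98), and Wee1 (0.98), and for Klf9 Snx30 (0.96), Lrrc8d (0.95), and Nek9 (0.95). Arl4d, a small GTPase, was the closest gene to Tsc22d3 (0.92), Sgk1 (0.97), and Dusp1 (0.94) alike. The rest were Ddit4 (0.91) and Apobec1 (0.90) for Tsc22d3, Ip6k2 (0.94) and Ppm1d (0.94) for Sgk1, and Sgk1 itself (0.93) and Gm45774 (0.91) for Dusp1. Zbtb16 was closest to Otud3 (0.90), Npy4r (0.86), and Tek (0.86), and Hsd11b1 to Lbp (0.95), Pi16 (0.91), and Steap4 (0.90).

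RSEM also gives the mean length of a gene's transcripts in each tumor, weighted by their abundance, which reads a shift between long and short transcripts. No member passed in any comparison (limma on log2 length, over 12391 genes), where 0.00807% of genes passed between responders and non-responders, 0.0242% between responders and controls, and 0% between non-responders and controls. At an unadjusted p under 0.05 were 0 members in the first, Tsc22d3 and Dusp1 in the second, and Tsc22d3 in the last, and limma without the trend or with mouse as a random effect also called 0. Klf9 had the same length in all 14 tumors and could not be tested. Tsc22d3, which makes long and short forms of GILZ from different start sites, came nearest, with 1954.24 to 1964.18 bases in the 5 controls, 1940.47 to 1949.01 in the 5 responders, and 1939.97 to 1949.18 in the 4 non-responders. The treated tumors were all below the controls, by a few bases, and the difference of responders from controls missed the threshold (adjusted p = 0.866, limma).

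The rest of the pathway was read from lists of known genes. Of the genes that supply hormone or compete for it, 7 of 12 were tested and 1 differed between responders and controls, 14.3% beside 13.2% of all genes. Between responders and non-responders, and between non-responders and controls, 0 passed in edgeR, 0 had an unadjusted p under 0.05, and DESeq2 and limma-voom called 0. H6pd, which feeds Hsd11b1 with NADPH in the endoplasmic reticulum, was 45.22 to 58.88 CPM in the 5 controls and 72.58 to 80.43 in the 5 responders, while the 4 non-responders ran from 40.87 to 85.05. Its difference of responders from controls was 0.47 ± 0.14 on the log2 scale (SE, adjusted p = 0.0429, edgeR). The enzymes of steroid synthesis Cyp11b1, Cyp21a1, and Hsd3b1, the corticosteroid carrier Serpina6, and Hsd11b2, which inactivates the hormone, were too low to be tested. Star, Cyp11a1, and Cyp17a1, also of steroid synthesis, were tested and did not pass. Their group means were 1.931 to 2.205, 1.474 to 1.992, and 0.1908 to 0.2517 CPM.

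None of 14 genes of the chaperone complex and none of 18 coregulators passed in edgeR in any of the 3 comparisons. Between responders and non-responders 2 of each list had an unadjusted p under 0.05, and DESeq2 called 0 and 1 of them, limma-voom 1 and 1. Between responders and controls the numbers at an unadjusted p under 0.05 were 1 and 3, DESeq2 called 0 and 1, and limma-voom 0 and 0. Between non-responders and controls they were 0 throughout. The smallest p of responders against non-responders was that of Bag1, a co-chaperone of Hsp70, in the first list (-0.33 on the log2 scale, adjusted p = 0.0896, edgeR), and that of Med14, a Mediator subunit that binds the receptor, in the second (0.37, adjusted p = 0.0639, edgeR).

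Among 36 further genes known to be induced by glucocorticoids, 35 were tested. Between responders and non-responders 2 rose and 0 fell in edgeR, 5.71% beside 9.9% of all genes. DESeq2 called 8 of the 35 and 2537 of the 16287 genes, and limma-voom 10 and 2973, both larger shares of the list than of all genes. Between responders and controls 3 rose and 1 fell in edgeR, 11.4% beside 13.2%. DESeq2 called 8 of the list and 2934 of all genes, and limma-voom 8 and 2974, again larger shares of the list. Between non-responders and controls 0 passed in edgeR, 5 having an unadjusted p under 0.05 and DESeq2 and limma-voom calling 0. The medians were 0.0924, 0.22, and 0.0232 on the log2 scale, beside 0.0062, -0.0105, and 0.00554 over all genes. Sesn1, a stress sensor upstream of mTORC1, was higher than in non-responders by 0.44 (adjusted p = 0.0192, edgeR) and higher than in controls by 0.61 (adjusted p = 0.00174). Tnfaip3, the NF-kappaB inhibitor A20, was higher than in non-responders by 0.63 (adjusted p = 0.0342, edgeR). Il1r2, the decoy receptor for interleukin 1, was higher than in controls by 0.79 (adjusted p = 0.0402, edgeR), while Errfi1, a feedback inhibitor of EGFR, was lower than in controls by a log2 difference of -0.54 (adjusted p = 0.0161).

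Inflammatory genes that the receptor is known to hold back went both ways. Of 17 tested, 4 rose between responders and non-responders (Ifng, Ccl5, Nos2, and Icam1), 23.5% beside 9.9% of all genes, and the same 4 rose and 1 fell (Ptgs2) between responders and controls, 29.4% beside 13.2%. Against controls 8 of the 17 had a log2 difference above 0, with a median of -0.00884, and against non-responders 11 did, with a median of 0.325. Between non-responders and controls 0 passed in edgeR, 0 had an unadjusted p under 0.05, and DESeq2 and limma-voom called 0. Ccl5, a chemokine made by T cells and macrophages, was higher in responders by 1.45 against non-responders and by 1.92 against controls (log2, adjusted p = 0.00793 and 0.000604, edgeR). Ifng, the T and NK cell cytokine, was higher by 1.81 and 1.77 (adjusted p = 0.0139 and 0.00515, edgeR). Nos2, the inducible nitric oxide synthase that interferon gamma switches on in macrophages, was higher by 1.06 and 1.14 (adjusted p = 0.0406 and 0.0173, edgeR). Ptgs2, the prostaglandin synthase COX-2, fell by a log2 difference of -1.12 against controls (adjusted p = 0.013, edgeR). T cell markers were higher in the same comparisons, and their part in these differences was not tested.

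Slurp1, a secreted protein, and Tmem176b, a membrane channel protein, are genes near which the study placed receptor binding in public data. Slurp1 was 5.112 to 7.883 CPM in the 5 controls and 11.84 to 19.18 in the 5 responders, while the 4 non-responders ran from 4.249 to 11.93. Its level in responders exceeded that in non-responders by 0.93 and that in controls by 1.28 (log2, adjusted p = 0.032 and 0.00319, edgeR). Tmem176b was higher than in non-responders by 0.41 (adjusted p = 0.0347) and 0.32 above controls without passing (adjusted p = 0.0569, edgeR).

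Other inputs to the same targets were checked because serum and stress signals also induce Dusp1, Sgk1, and Per1. Of 20 immediate early genes, 1 rose and 1 fell between responders and non-responders (10% beside 9.9% of all genes), 2 rose and 2 fell between responders and controls (20% beside 13.2%), and 0 passed between non-responders and controls (edgeR, with 5 at an unadjusted p under 0.05 and 0 by DESeq2 and limma-voom). Klf2, a quiescence factor of T cells and endothelium, was higher in responders by 0.60 against non-responders and 0.73 against controls (log2, adjusted p = 0.0397 and 0.00925, edgeR). Fosl1, an AP-1 subunit, had log2 differences of -0.57 and -0.74 (adjusted p = 0.00962 and 0.000869, edgeR). Against controls Myc was also lower, at -0.61 (adjusted p = 0.00563), and Jund higher, at 0.38 (adjusted p = 0.0429, edgeR). Of 17 clock genes, 16 were tested and 0 passed in any comparison (edgeR), with 2, 2, and 1 at an unadjusted p under 0.05 in the order used above, 1, 0, and 0 by DESeq2, and 1, 1, and 0 by limma-voom. The smallest p between responders and non-responders was that of Nr1d2, a repressor of the clock (-0.39, adjusted p = 0.0716, edgeR).

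**Figure D5:**
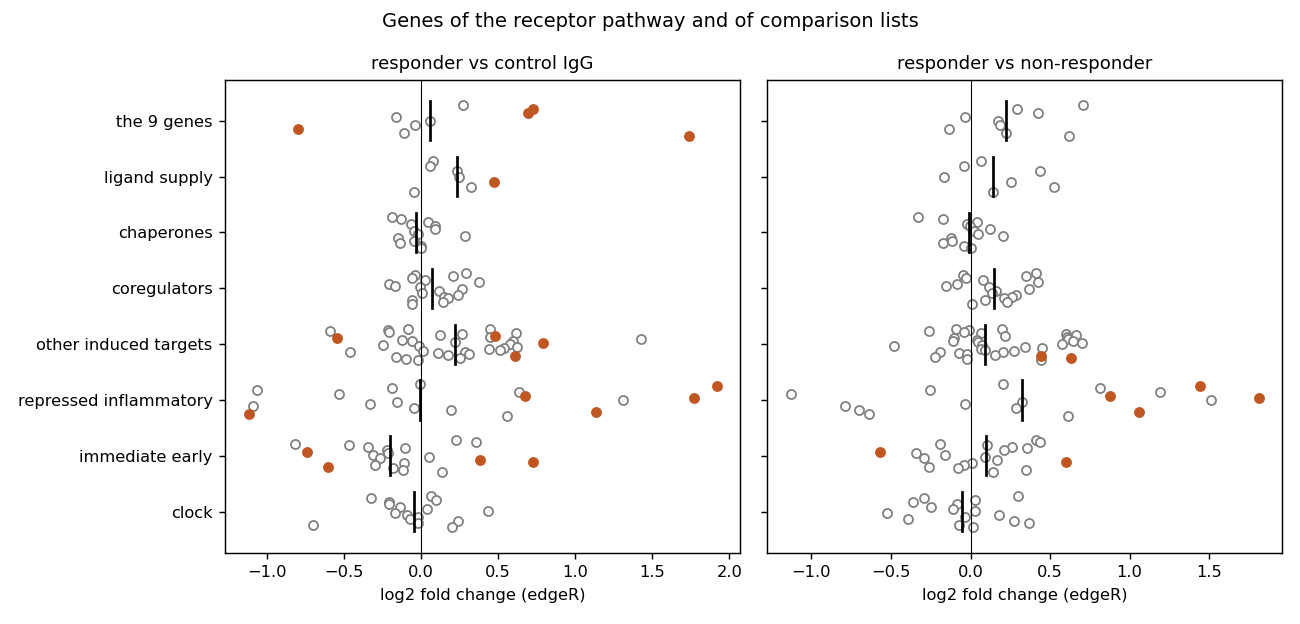
Log2 difference of each tested gene in 8 lists of the receptor's pathway and neighbouring programs, for responders versus non-responders and responders versus control IgG, with 1 point per gene, filled where the adjusted p of edgeR is under 0.05, and a bar at the list's median. The receptor's chaperones and coregulators lie near 0, and the widest spread is among the inflammatory genes, from -1.13 to 1.92.

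Markers of other host tissue in the tumor pieces varied widely inside groups. Skin epidermis markers summed to 8.263 to 735.6 CPM in controls, 141 to 305.8 in non-responders, and 13.98 to 1013 in responders, and skeletal muscle markers to 133.3 to 1334, 95.86 to 787, and 25.02 to 446.4. None of 9 skin, 8 muscle, or 7 adipocyte markers passed in edgeR in any comparison, 0 had an unadjusted p under 0.05, and DESeq2 and limma-voom called 0, the smallest p between responders and non-responders being that of Krt15, Myh4, and Lep in turn (adjusted p = 0.376, 0.631, and 0.23). Fibroblast markers summed to 2381 to 3062 CPM in controls, 2287 to 4252 in non-responders, and 2827 to 4710 in responders, with 2 of 8 higher and 1 lower in responders than in controls and 1 higher than in non-responders. Endothelial markers summed to 134.9 to 207.5, 145.7 to 215.3, and 203 to 257.5 CPM, with 1 of 6, Emcn, higher in responders than in controls. The neutrophil list had 1 of 6 higher in both comparisons of responders (Csf3r), but it did not rise as a list. Its median log2 difference was -0.286 against non-responders, with 3 of 6 above 0. Against controls the median was -0.426, with 2 of 6 above 0. The epithelial list had 1 of 7 lower against controls (Cdx2). The part of these tissues in the members' values was not tested.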

How the data were processed

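Bulk RNA-seq of 14 tumors was used, and groups, mice, and flanks were taken from the labels. Per the study's methods, reads were aligned to mm10 with STAR and quantified per gene with RSEM under default settings, which is stated for the cell lines and referred to for the tumors. The expected counts deposited by the authors are estimates that were not normalized, in which fragments that match several genes are divided among them. The deposited TPM values correct those estimates for effective length and share a fixed total, the mean transcript lengths they deposited are in bases, and the deposited FPKM values were not used. No pair of tumors in a group agreed within sampling noise, the lowest chi-square per gene being 19.78.

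Rounded expected counts entered edgeR 4.0.16 under R 4.3.3 (TMM, filterByExpr, quasi-likelihood test, Benjamini-Hochberg adjustment over 16287 genes, threshold 0.05) in 1 fit of 3 groups. CPM used TMM, log2 CPM a prior count of 2, and log2 TPM a pseudocount of 1. A log2 difference on TPM understates the change of low genes such as Zbtb16. Mean transcript lengths were tested with limma 3.58.1, and correlations by permutation with 100000 resamples, whose smallest possible p is 1e-05. Alternatives were DESeq2 1.42.0, its size factors, no filter, only the groups compared, limma-voom with mouse as a random effect, summed flank tumors, TPM, an offset for a loess trend on gene length (span 0.5), and leaving out each tumor. The tests were checked on simulated data. Gene symbols and positions came from the mm10 annotation, in which 53706 of 53801 identifiers had a symbol.

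The 9 members and the other lists were chosen with earlier results of these data known. Genes named from other lists are up to 4 with the largest log2 difference among those that passed, or the smallest p where none did, and beside each member the 3 genes most correlated with it among 12204. The labels name separate tumors, but 3 mice gave 2 each, so p-values measure a spread that is in part within animals.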

Additional observations from a re-analysis of the deposited data

How the results depend on the processing

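Between responders and non-responders the number of members called went from 0 to 1 under limma-voom with mouse as a random effect (Dusp1), to 2 on TPM (Dusp1 and Hsd11b1), and to between 0 and 2 when 1 tumor was left out, with 2 (Tsc22d3 and Dusp1) without 29L. With the tumors of a mouse summed, the number stayed at 0. Over all genes, 1612 were called there, against 689 with only the compared groups, 1106 without the filter, 2559 by DESeq2, and 2973 by limma-voom. Of the 35 other induced genes 2 were called there in edgeR, against 8 by DESeq2 and 10 by limma-voom, and 4 between responders and controls, against 8 by each. Both tools also called more of all genes than edgeR did. Between responders and controls the 4 members called became 3 without the filter and on TPM, and 2 to 4 without 1 tumor, with 2 without 20R, 24L, or 30R. Between non-responders and controls 0 members were called under every alternative run, while DESeq2 called 16 genes. Zbtb16 passed against controls in 8 of 8 alternatives and in 14 of 14 fits without 1 tumor, at log2 differences from 0.53 on TPM to 2.12. Signs turned for members whose difference was small and did not pass. For responders against non-responders, Nr3c1 was -0.11 and Per1 -0.026 with the length offset. The highest value of Nr3c1 among the 8 alternatives was 0.40, and none of them passed. Sgk1 was 0.0059 under limma-voom, 0.18 on TPM, and -0.27 (without 33R) to 0.19 (without 29L) when 1 tumor was left out. Klf9 was 0.077 under limma-voom and 0.25 on TPM, and went from -0.19 without 33R to 0.15 without 29L, with 0.011 without 24L and 0.0079 without 35L. Against controls, Nr3c1 in responders was -0.12 with the length offset, and Tsc22d3 was 0.03 on TPM. Per1 was 0.021 under limma-voom and 0.045 on TPM, and went from -0.14 without 14R to 0.035 without 17R, with 0.02 without 16R and 0.028 without 35L. Klf9 in non-responders went from -0.32 without 29L to 0.026 without 33R. The cause of these turns was not tested. Pairs of members with a correlation past the threshold were 4, against 20 on log2(TPM + 1), 7 with group means removed, and 2 with group means removed and without 29L and 33R, the last chosen after the data were seen. Of the values recomputed, 557 log2 differences of members kept their direction and side of the threshold, among them many that passed in neither fit. A further 18 turned in sign, 5 came to pass, and 14 no longer passed. Those 14 were all refits of the 4 differences that had passed between responders and controls. Of the counts, 109 stayed within 1.5 times the count reported and 9 did not. With all tumors in edgeR, no member differed between treated groups beyond the spread of 4 and 5 tumors, which does not show that they were alike. No paired analysis was possible because the groups share no mouse and no replicate numbers.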
